A study of Mus musculus with 6 samples.

Results

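The amino acid transporters described here are the genes whose symbols fall in the solute carrier families Slc1, Slc3, Slc6, Slc7, Slc36, Slc38 and Slc43. The symbol pattern selected 59 of the 24421 gene symbols in the deposited table: 7 of Slc1, 2 of Slc3, 17 of Slc6, 15 of Slc7, 4 of Slc36, 11 of Slc38 and 3 of Slc43. Of the 59, 32 (54.2%) had at least 0.5 CPM (reads scaled to a common library total) in 2 or more of the 6 columns, against 13130 of all symbols (53.8%). All RNA was from hearts of C57BL6/J mice aged 4 weeks, which had been lysed. An antibody against Cnot3 brought down the RNA of 2 libraries (Cnot3 RIP), another 2 were made with a control antibody instead (control IgG RIP, here the IgG control), and 2 sampled the lysate directly (Input). The labels name no genetic change and no drug in any group. They do not say whether replicates came from separate animals, so each p-value rests on the spread between libraries that may differ only technically.

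Heart cells take up amino acids and related solutes through several kinds of carrier. Slc38 and Slc6 proteins use the sodium gradient, the Slc36 protein PAT1 uses protons and Slc43 proteins need neither. The light chains of Slc7 reach the cell surface bound to a heavy chain of Slc3. In cardiac muscle the Slc6 family is known for taurine and creatine uptake, which supply an osmolyte and the energy buffer phosphocreatine. Cnot3 is a subunit of CCR4-NOT, the complex that shortens poly(A) tails. RNA-binding proteins such as those of the Pumilio family, which read the element TGTANATA (T for U in the RNA) in 3′ untranslated regions (UTRs), can bring that complex to an mRNA. RNA immunoprecipitation (RIP) shows which transcripts are recovered with a protein, relative to a control antibody and to the lysate.

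The 6 libraries held 15713318 to 33479580 reads. Of these, 51.1% to 79.2% belonged to the ribosomal RNA precursor Rn45s, so 3407528 to 12500739 reads remained for other genes. IgG control replicate 2 and Cnot3 RIP replicate 1 had the highest correlation across genes of any of the 15 library pairs (Pearson's r = 0.9748). The Input pair was almost equal (0.9747), while the Cnot3 RIP pair (0.965) and the IgG control pair (0.9705) were lower. Levels below are in scaled CPM, which corrects each library with a trimmed-mean (TMM) factor. A count of 0 in a library allows up to 3 reads, or 0.0899 to 0.277 scaled CPM, and this floor covers counting error only. Summed markers of cardiomyocytes reached 24925 to 43678 scaled CPM, of fibroblasts 753 to 1343, of endothelium 295 to 504, of smooth muscle and pericytes 224 to 442 and of leukocytes 78.1 to 129. Those of fat, epicardium and skeletal muscle summed to 33.7 to 72.2, of erythroid cells and platelets to 8.33 to 18.6 with 5 of 9 markers at 0 in each group, and of nerve and Schwann cells to 2.91 to 6.56. In bulk samples such as these, fewer cells of a type and less RNA per cell cannot be told apart.

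Slc38a2 and Slc6a8 had the highest transcript levels per length in the lysate. Per kb of the principal annotated transcript, Slc38a2, which encodes the neutral amino acid carrier SNAT2, stood at 23.1 ± 1.79 scaled CPM (SD, n = 2) in Input. Slc6a8, the creatine carrier, stood at 19.2 ± 2.87 on the same scale. Slc6a6, the taurine carrier, had 10.2 ± 1.19, the glutamine carrier Slc38a3 9.89 ± 2.42, Slc43a3 9.5 ± 2.26 and Slc38a10 8.24 ± 1.31 scaled CPM per kb. The 2 Input values of Slc38a2 and Slc6a8 lay above those of every other member, while the lower value of Slc38a2 (21.9) was close to the higher value of Slc6a8 (21.2). Their principal transcripts have 4660 and 3314 bases, where all annotated exons span 8838 and 5210. The order of these 2 genes therefore depends on the length used. Neighbours in the order Slc6a6, Slc38a3, Slc43a3 and Slc38a10 overlapped in their 2 Input values, while both values of Slc6a6 (11.03 and 9.35) lay above both of Slc38a10 (7.32 and 9.16). Slc7a1, the cationic amino acid carrier CAT1, followed at 5.09 ± 0.193, Slc36a2 at 4.04 ± 0.0726 and the heavy chain Slc3a2 at 3.55 ± 0.325 scaled CPM per kb.

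**Figure D1:**
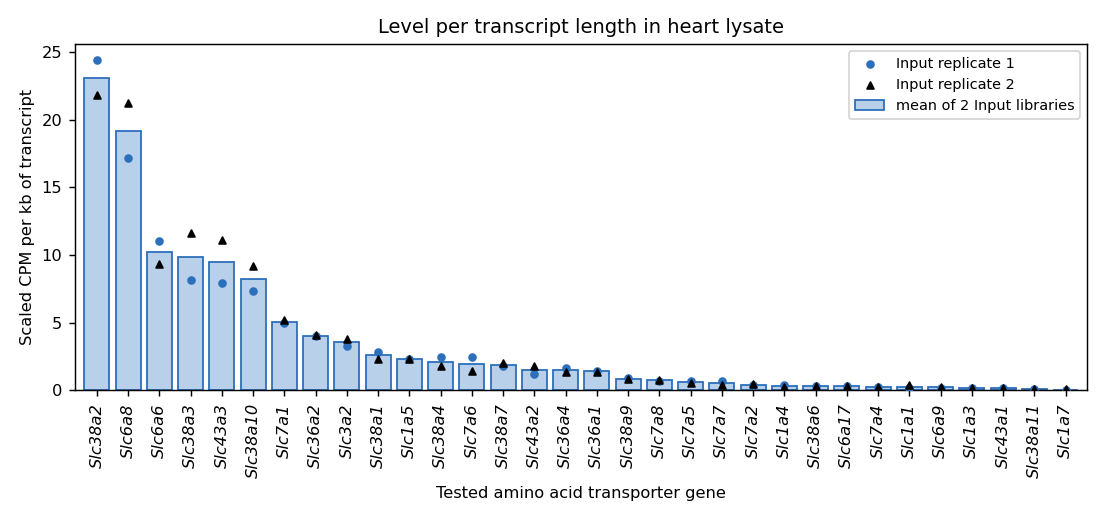
Bars give the mean level per kb of transcript in the 2 Input libraries for the 32 tested members, and symbols give each library. Slc38a2 at 23.1 and Slc6a8 at 19.2 scaled CPM per kb stand apart from the other members, the highest of which is Slc6a6 at 10.2.

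The other 27 members were low or not detected and were not tested. They were the same genes that missed 0.5 CPM in 2 columns. At that limit, Slc7a4 (0.637 CPM in its second-highest column), Slc38a11 (0.678) and Slc1a7 (0.743) lay just inside, while Slc1a2 (0.405), Slc7a15 (0.365) and Slc3a1 (0.347) lay just outside. No read was counted in any library for Slc1a6, Slc36a3, Slc6a5, Slc6a14 and Slc7a12. The other 22 had 1 to 42 reads summed over all libraries and reached at most 0.634 scaled CPM in any one. The 3 carriers of noradrenaline, dopamine and serotonin (Slc6a2, Slc6a3 and Slc6a4) were all among these 22. Slc3a1, the heavy chain known from kidney and intestine, had 25 reads in all, at 0.461 and 0.272 scaled CPM in the IgG control, 0.178 and 0.0899 in Cnot3 RIP, beside 0.0924 and 0.0966 in Input. Its exons overlap those of Prepl on the other strand over 26.5% of their length.

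**Figure D2:**
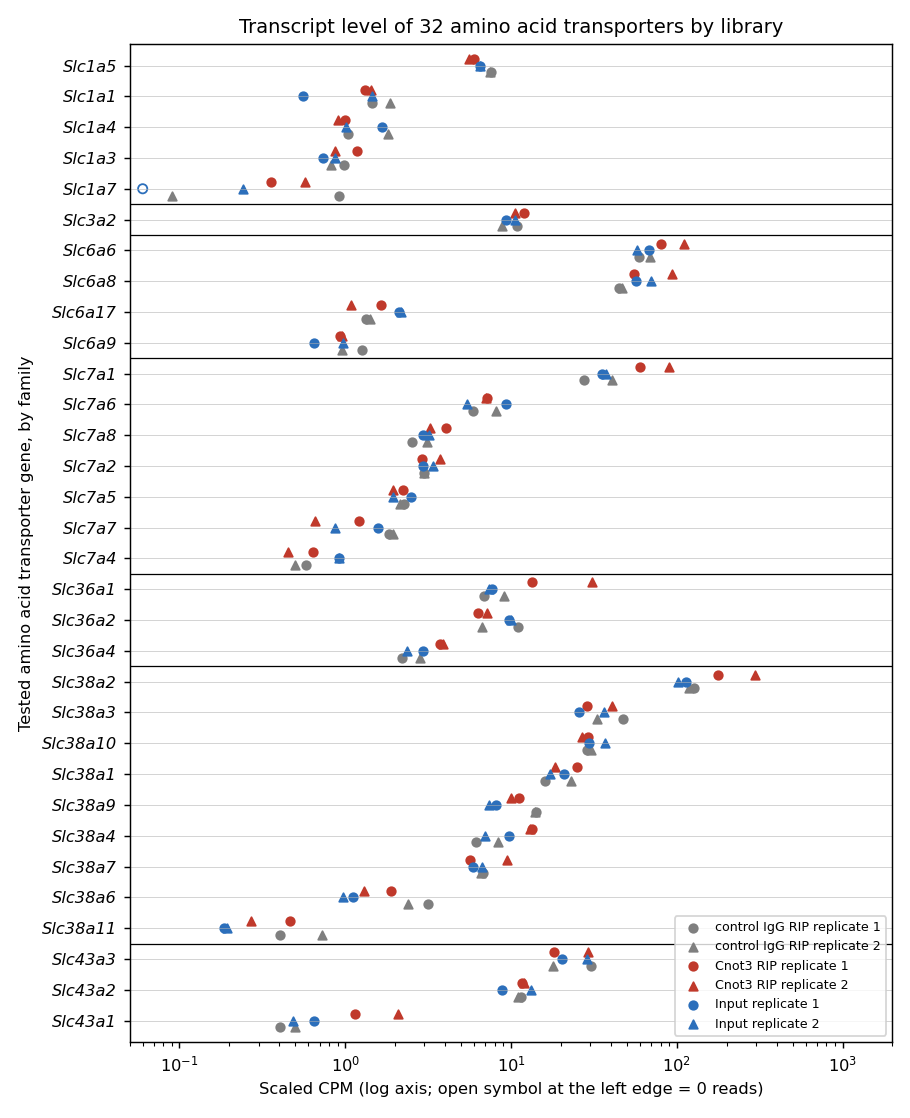
Each symbol is 1 library's level of a tested member in scaled CPM on a log axis, with circles for replicate 1 and triangles for replicate 2, and 7 families separated by lines. Slc38a2 lies above 100 scaled CPM in all 6 libraries, and 0 reads were counted for Slc1a7 in Input replicate 1.

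Cnot3 RIP was compared with the IgG control to ask which carrier transcripts the Cnot3 antibody recovered beyond the procedure's background. With limma (Benjamini-Hochberg adjusted p under 0.05 over 13010 genes), 0 of the 32 tested members were called, and edgeR's quasi-likelihood test on the recovered reads also called 0. The background was 1.54% of all tested genes called higher and 0.277% called lower. With an unadjusted p under 0.05, 7 members stood higher and 2 lower, where 10.9% of all tested genes were higher and 6.33% lower by that measure, so 2 of 32 lower is near the background. Both Cnot3 RIP libraries lay above both libraries of the IgG control for 10 members and below them for 6, while the groups overlapped for 16. Over all tested genes the shares were 24% above and 21.8% below, so neither 10 nor 6 of 32 is far from the background. The log2 fold change was above 0 in 18 members, where 49.7% of all tested genes were above 0, so 18 of 32 is near the background. Its median was 0.06 over the members and −0.003 over all tested genes. A difference of 2-fold or more was seen for 3 members, all higher (Slc43a1, Slc36a1 and Slc7a1), where 5.79% of all tested genes were at least 2-fold higher and 3.98% at least 2-fold lower.

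The sodium-coupled carrier Slc38a2 (chr15:96687392-96699730, minus strand, mm10) supplied much of the family's signal. Its level was 126 and 119 scaled CPM in the IgG control, 176 and 294 in Cnot3 RIP, beside 114 and 102 in Input. Both Cnot3 RIP libraries lay above the other 4, with replicate 2 well above replicate 1. The log2 fold change against the IgG control was 0.90 (SE 0.28, limma adjusted p = 0.133), a 1.86-fold difference with an unadjusted 95% interval of 1.21 to 2.86. The 11 Slc38 genes summed to 353 ± 86.7 scaled CPM in Cnot3 RIP against 243 ± 7.94 in the IgG control (SD, n = 2). Slc38a4, a neutral and cationic amino acid carrier 295.1 kb from Slc38a2, had 13.4 and 13.1 scaled CPM in Cnot3 RIP against 6.11 and 8.38 in the IgG control, and 9.70 and 7.0 in Input. Here the Cnot3 RIP libraries were alike and above the other 4 (log2 fold change 0.86, SE 0.26, limma adjusted p = 0.129). Slc38a1, which lies 44.5 kb on the other side of Slc38a2 and also carries glutamine, overlapped between the groups, at 25 and 18.4 in Cnot3 RIP and 16.1 and 23.0 in the IgG control.

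Among carriers of cationic amino acids, Slc7a1 (chr5:148327410-148399904, minus strand) stood highest. It was at 60.0 and 89.96 scaled CPM in Cnot3 RIP, 27.7 and 40.7 in the IgG control and 35.6 and 37.5 in Input. The groups did not overlap, and its log2 fold change of 1.12 (SE 0.28) had the smallest adjusted p of any member against the IgG control, 0.0783 by limma. The unadjusted 95% interval of its 2.18-fold difference ran from 1.42 to 3.35. Its relative Slc7a2 differed by less than its error, with 2.92 and 3.72 scaled CPM in Cnot3 RIP and 3.0 and 2.99 in the IgG control. The heavy chain Slc3a2 (CD98) also lay within its spread, at 11.9 and 10.6 in Cnot3 RIP and 10.9 and 8.79 in the IgG control (log2 fold change 0.20, SE 0.23). Of its tested light chains, the leucine carrier Slc7a5 had a log2 fold change of −0.06 (SE 0.28), Slc7a6 0.05 (SE 0.30) and Slc7a8 0.34 (SE 0.26). The light chain Slc7a7 was low, at 1.21 and 0.660 scaled CPM in Cnot3 RIP against 1.85 and 1.95 in the IgG control (log2 fold change −0.90, SE 0.37, limma adjusted p = 0.256). Both of its Cnot3 RIP values lay below both control values, and 7.0% of its exon length is shared with Oxa1l on the other strand.

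Slc36a1 (chr11:55204350-55236330, plus strand) encodes the proton-coupled carrier PAT1, which works at lysosomes and the cell surface. It had 13.4 and 31.0 scaled CPM in Cnot3 RIP, 6.86 and 9.11 in the IgG control and 7.67 and 7.34 in Input. Both Cnot3 RIP values lay above the other 4, and they differed more from each other than the replicates of either other group did. The log2 fold change was 1.34 (SE 0.36, limma adjusted p = 0.104), or 2.53-fold with an interval of 1.44 to 4.45. Slc36a4, a relative, had 3.74 and 3.90 in Cnot3 RIP against 2.19 and 2.81 in the IgG control. Slc36a2, 19.3 kb from Slc36a1, lay on the other side, with 6.30 and 7.16 against 10.96 and 6.71 scaled CPM and overlapping groups (log2 fold change −0.34, SE 0.27, limma adjusted p = 0.613). Slc43a1 (chr2:84838850-84863594, plus strand), the branched-chain amino acid carrier LAT3, had the largest fold change of the members at a low level. It stood at 1.14 and 2.07 scaled CPM in Cnot3 RIP, 0.404 and 0.498 in the IgG control and 0.646 and 0.483 in Input (log2 fold change 1.36, SE 0.38, limma adjusted p = 0.113). Slc43a2 (LAT4) and Slc43a3 had log2 fold changes of 0.07 and −0.02.

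The taurine and creatine carriers stood 1.46-fold and 1.58-fold above the IgG control, short of the threshold. Slc6a6 (chr6:91684053-91759066, plus strand) stood at 80.3 and 110 scaled CPM in Cnot3 RIP, 59.4 and 69.3 in the IgG control and 68.2 and 57.8 in Input. Its Cnot3 RIP values lay above the other 4 (log2 fold change 0.55, SE 0.24, limma adjusted p = 0.286). Slc6a8 (chrX:73673150-73682502, plus strand) stood at 55.6 and 94.1 in Cnot3 RIP, 44.8 and 46.5 in the IgG control and 56.8 and 70.3 in Input. Its Cnot3 RIP values lay above the control antibody but on both sides of Input (log2 fold change against the IgG control 0.66, SE 0.28, limma adjusted p = 0.263). The exchanger Slc1a5 (ASCT2), which swaps glutamine for other neutral amino acids, was at 5.95 and 5.61 scaled CPM in Cnot3 RIP and 7.55 and 7.43 in the IgG control. Its groups did not overlap, and its log2 fold change of −0.36 (SE 0.22) had a limma adjusted p of 0.475. Also below the control in both libraries were Slc38a9, the lysosomal arginine sensor, at −0.40 (SE 0.22, limma adjusted p = 0.398), and Slc38a6 at −0.73 (SE 0.31, limma adjusted p = 0.272).

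**Figure D3:**
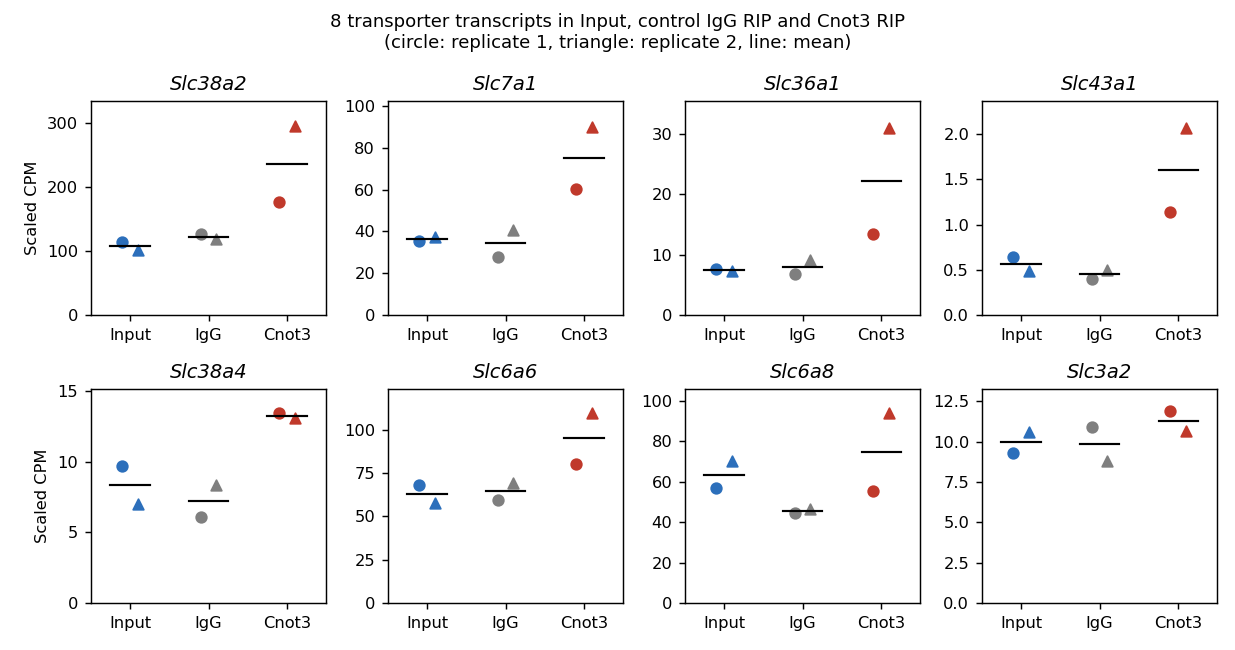
Each panel shows 1 member in scaled CPM from 0, with a circle for replicate 1, a triangle for replicate 2 and a line at the group mean (n = 2). In Slc38a2, Slc7a1, Slc36a1, Slc43a1, Slc38a4 and Slc6a6 both Cnot3 RIP libraries lie above the other 4, while the groups overlap in Slc3a2.

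How far these members stood above the control depended on the Cnot3 RIP library. Replicate 2 was above replicate 1 in 8 of the 10 members higher in both, and below it in 5 of the 6 members lower in both. The share of all tested genes with this order was not counted. Without Cnot3 RIP replicate 2, log2 fold changes against the IgG control were 0.74 for Slc36a1, 0.53 for Slc38a2, 0.81 for Slc7a1 and 0.98 for Slc43a1, and 0 members were called. Without replicate 1 they were 1.93, 1.27, 1.41 and 1.70, and limma called these 4 and Slc6a8 (5 members), with the lone library assumed to vary like the other groups. In that fit 1012 of the 13010 genes were called higher and 263 lower, where all 6 libraries gave 200 and 36, so more calls were made among genes at large as well. The summed cardiomyocyte markers were 31146 and 32274 scaled CPM in the 2 Cnot3 RIP libraries and 43678 and 25929 in the IgG control. Summed fibroblast markers were 1343 and 753 in Cnot3 RIP and 913 and 1238 in the IgG control, and endothelial markers 504 and 295 against 335 and 499. The part of these differences in the results was not tested. In none of the marker lists was a gene called between the 2 kinds of RIP by limma.

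The 3′ UTRs of the members were searched on the transcript strand for the Pumilio element TGTANATA, the AU-rich nonamer TTATTTATT and the AU-rich pentamer ATTTA, whose matches can lie within the nonamer. Sequences and gene models were those of GENCODE M21 on mm10, with 1 principal transcript per gene. Of the untested members, Slc6a19 held 7 Pumilio elements, Slc7a11 3 and Slc6a2 2. The 4 tested members with more than 1 Pumilio element were Slc38a2, Slc7a1, Slc38a1 and Slc38a4. Their elements are shown because 3 of them were among the 5 higher members of smallest p against the IgG control and the other was not. Each line gives 8 bases on either side, 5′ to 3′ in the mRNA sense, with the element in capitals. All are on the minus strand.
Slc38a2 chr15:96687873-96687896: tgataaacTGTACATAtattgtcc
Slc38a2 chr15:96687848-96687871: tatgtattTGTAAATAgattgtat
Slc38a2 chr15:96687837-96687860: aaatagatTGTATATActgttgga
Slc38a2 chr15:96687809-96687832: ggttcaagTGTATATAttccccta
Slc38a2 chr15:96687521-96687544: tccttgtaTGTATATAgtgtaaat
Slc7a1 chr5:148331215-148331238: ttactcttTGTAGATAgaaactgc
Slc7a1 chr5:148329981-148330004: aacaatgaTGTATATAgttatgcc
Slc7a1 chr5:148328469-148328492: gagaggatTGTACATAaggttcct
Slc7a1 chr5:148327736-148327759: atgtaaatTGTATATAtatttttt
Slc38a4 chr15:96996059-96996082: tatgtttgTGTACATAatctcatt
Slc38a4 chr15:96995784-96995807: gaagggttTGTAAATAattttcag
Slc38a1 chr15:96576284-96576307: tcttgaatTGTATATAtttatttt
Slc38a1 chr15:96576022-96576045: ggcgcctcTGTATATAtatattaa
Slc38a1 chr15:96572322-96572345: cctttgtaTGTAAATAtgttgtaa
Slc38a1 chr15:96572311-96572334: aaatatgtTGTAAATAcataggag

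The first 4 elements of Slc38a2 lie close together, starting at bases 2239, 2264, 2275 and 2303 of its 2735-base 3′ UTR counted from the first base after the stop codon, and the fifth starts at 2591. Those of Slc7a1 are spread over a UTR of 5030 bases. A Pumilio element was present in 10 of the 32 tested members (31.2%) and in 24.5% of the 12230 tested genes with a 3′ UTR. The nonamer was in 2 members (6.25%, Slc1a7 and Slc7a6) against 7.34%, and the pentamer in 25 (78.1%) against 66.7%. Per kb of 3′ UTR the pentamer was less dense in the members, with 1.12 matches against 1.81 over all. Longer UTRs hold more matches, and the median 3′ UTR was 1767 bases in the members and 1011 over all. Among all 3′ UTRs of 0.8 to 1.25 times the length, 42.5% of the 1549 like Slc38a2, 58.5% of the 614 like Slc7a1, 35.6% of the 1788 like Slc38a4 and 59.5% of the 538 like Slc38a1 held at least 1 element. The share with 2 or more, as in these 4 members, was not counted at these lengths. The 4 tested members with 2 or more elements had a median log2 fold change against the IgG control of 0.881. It was −0.0698 for the 6 tested members with 1 and −0.0056 for the 22 with none. Over all tested genes the medians were 0.284 (902 genes), 0.136 (2089) and −0.0323 (9239). Slc38a1, with 4 elements, was at 0.15 (SE 0.26), and Slc36a1 and Slc43a1, with none, were at 1.34 and 1.36. Across genes, Spearman's rho between 3′ UTR length and this fold change was 0.262 in the 32 members and 0.273 in all 12230, over the same libraries, and genes are not independent replicates. These matches describe letters in the annotated UTR and were not measured as bound sites.

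**Figure D4:**
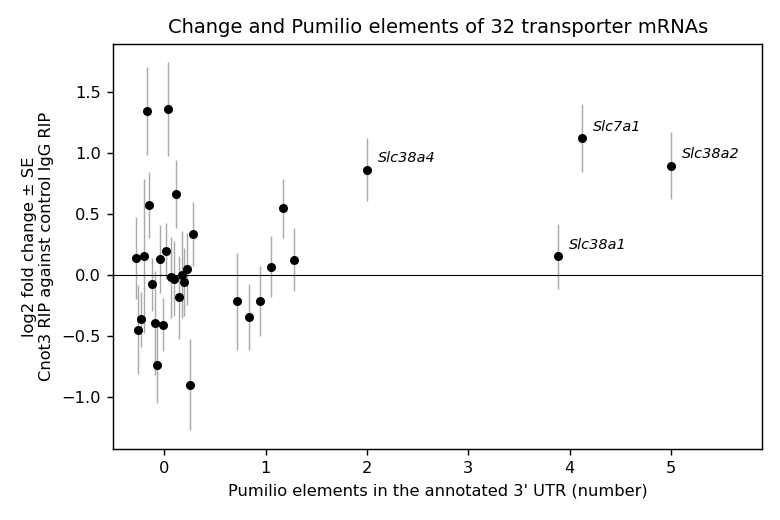
Each point is 1 of the 32 tested members, placed by the number of Pumilio elements in its annotated 3′ UTR (points at 1 number are spread sideways) and its log2 fold change in Cnot3 RIP against the IgG control, with bars of 1 SE. Slc7a1, Slc38a2 and Slc38a4 lie near 1, Slc38a1 lies at 0.15, and 2 members without an element are the highest of all.

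Cnot3 RIP was also compared with Input, which asks how recovery differed from the lysate. This comparison shares its Cnot3 RIP libraries with the one above. By limma 2 of the 32 members were higher and 0 lower, Slc36a1 and Slc38a2, where 5.86% of all tested genes were called higher and 2.47% lower. edgeR's quasi-likelihood test also called 2. With an unadjusted p under 0.05, 6 stood higher and 0 lower, where 15.5% of all tested genes stood higher and 11.8% lower, so 6 of 32 is near the background. Slc36a1, at 22.2 ± 12.4 scaled CPM in Cnot3 RIP against 7.50 ± 0.231 in Input (SD, n = 2), rose 2.67-fold (log2 fold change 1.42, SE 0.36, limma adjusted p = 0.0447). Slc38a2, with 235 ± 83.4 against 108 ± 8.32, rose 2.12-fold (log2 fold change 1.08, SE 0.28, limma adjusted p = 0.0445). Both calls were close to the threshold and were lost when any library but Cnot3 RIP replicate 1 was left out, with adjusted p up to 0.235 for Slc36a1 and 0.281 for Slc38a2. Without Cnot3 RIP replicate 2 the log2 fold changes were 0.82 and 0.71. They were also lost with library sizes taken without Rn45s (0.0673 and 0.0504).

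Slc7a1, at 1.0 on the log2 scale (SE 0.28, limma adjusted p = 0.0549), and Slc43a1, at 1.15 (SE 0.38, limma adjusted p = 0.0933), lay just short of the threshold against Input. Slc38a4 had 0.67 (SE 0.26, limma adjusted p = 0.139) and Slc6a6 0.58 (SE 0.24, limma adjusted p = 0.162). Slc6a8 differed less from Input, at 0.19 (SE 0.28), than from the IgG control. The 5 lower members of smallest p were the vesicular neutral amino acid carrier Slc6a17 at −0.60 (SE 0.31), Slc36a2 at −0.53 (SE 0.27), Slc7a4 at −0.57 (SE 0.35), Slc38a10 at −0.25 (SE 0.22) and the exchanger Slc1a4 at −0.38 (SE 0.37), all with a limma adjusted p of at least 0.242. Slc7a4 shares 13.3% of its exon length with P2rx6 and Slc38a10 5.72% with Gm11769, both on the other strand. Both Cnot3 RIP libraries lay above both Input libraries for 14 members and below for 6, where all genes gave 30.6% and 26.9%. At least 2-fold differences were seen for 5 members higher and 0 lower, beside 8.59% and 3.03% of all genes. The median log2 fold change was 0.19 over the members and 0.06 over all tested genes. Directions against Input depended on the scaling. With the deposited CPM unscaled, the median over all tested genes moved to 1.02 and over the members to 1.23, and each of the 5 lower members just named was then above 0.

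**Figure D5:**
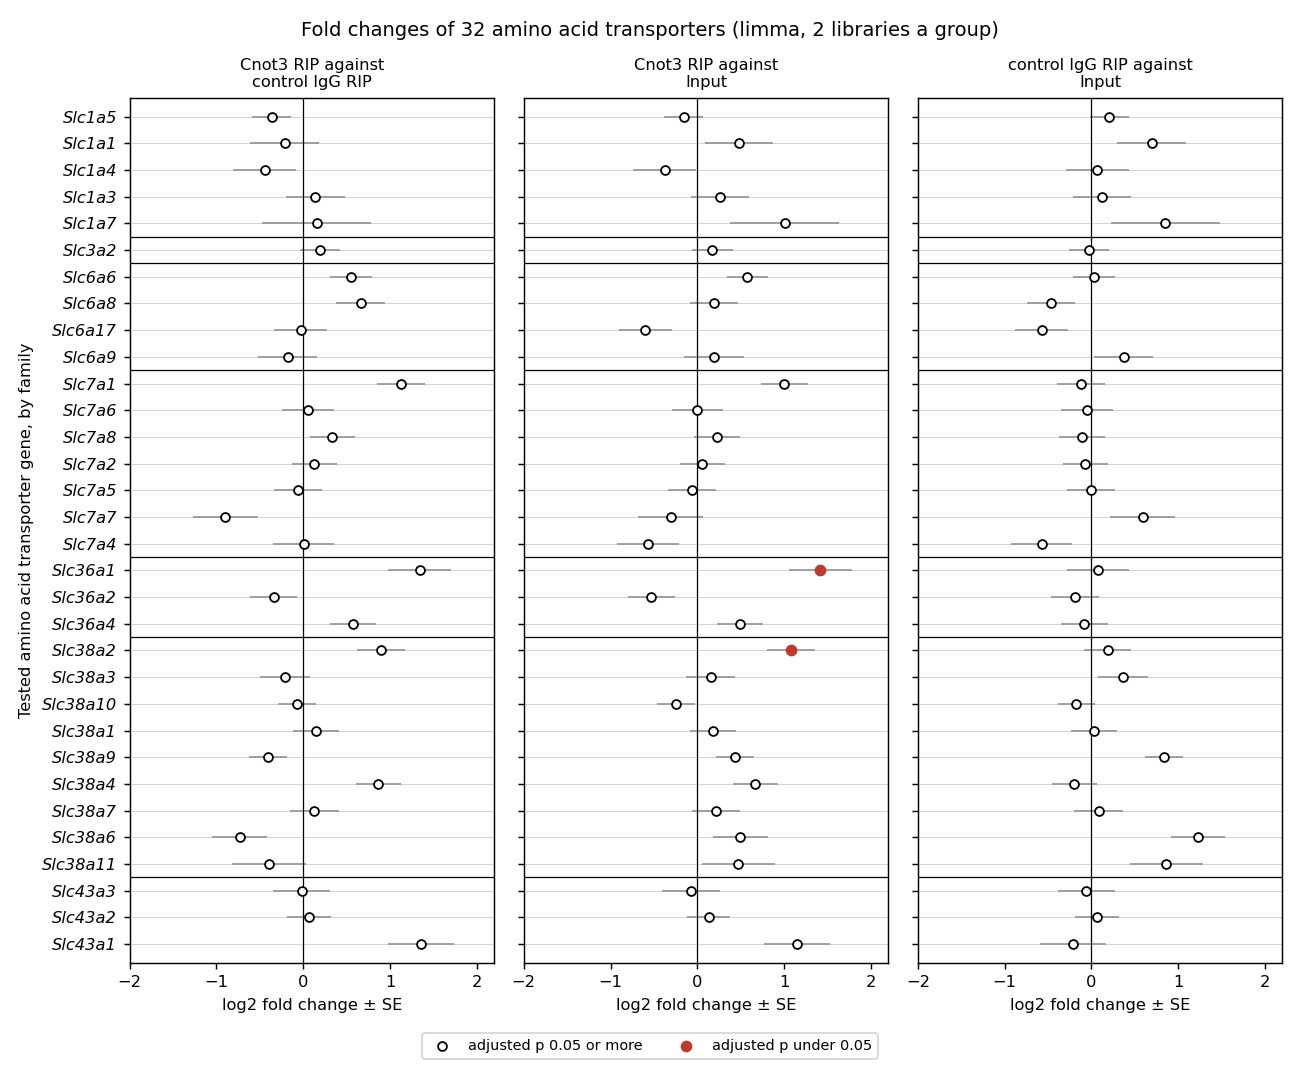
Points give the log2 fold change of each of the 32 tested members in the 3 comparisons with bars of 1 SE, and filled points have a limma adjusted p under 0.05. Only Slc36a1 and Slc38a2 are filled, both against Input, and Slc43a1 and Slc7a1 lie at or above 1 in both comparisons of Cnot3 RIP.

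The IgG control was compared with Input to show what the procedure itself recovered. Of the 32 members 0 were called by limma and 0 by edgeR's quasi-likelihood test, against 2.58% of all tested genes higher and 1.49% lower. With an unadjusted p under 0.05, 2 stood higher (Slc38a6 and Slc38a9) and 0 lower, where 13.3% of all tested genes stood higher and 11.7% lower. Slc38a9 stood at 14.07 and 14.04 scaled CPM in the IgG control and 8.13 and 7.39 in Input, with 11.1 and 10.04 in Cnot3 RIP. Its log2 fold change was 0.84 (SE 0.22, limma adjusted p = 0.0639). Slc38a6 stood at 3.17 and 2.40 in the IgG control, 1.11 and 0.966 in Input and 1.89 and 1.29 in Cnot3 RIP, which is 1.23 on the log2 scale (SE 0.31, limma adjusted p = 0.0624). For both genes the control antibody's libraries were the highest and the Cnot3 RIP libraries lay between. With only the 2 groups compared in the fit, both were called (limma adjusted p = 0.0449 for Slc38a9 and 0.0453 for Slc38a6). Slc38a11 had 0.86 (SE 0.42), Slc1a1 0.69 (SE 0.39) and Slc7a7 0.59 (SE 0.37), and their limma adjusted p was at least 0.241. Slc38a11 was low, at 0.404 and 0.725 scaled CPM in the IgG control and 0.185 and 0.193 in Input. Its Input values lay near the floor of those libraries (0.277 and 0.145). Of the exon bases of Slc1a1, 31.9% overlap 4430402I18Rik on the other strand, whose reads cannot be told apart from its own here. On the other side, Slc6a8 had −0.47 (SE 0.28), Slc6a17 −0.57 (SE 0.31), Slc7a4 −0.57 (SE 0.35), Slc38a10 −0.17 (SE 0.22) and Slc38a4 −0.20 (SE 0.26), with limma adjusted p of at least 0.278, and with unscaled CPM each of these but Slc7a4 was above 0. Slc38a2 (0.19, SE 0.28), Slc7a1 (−0.12, SE 0.28) and Slc36a1 (0.07, SE 0.36) differed by less than 1 SE between the control antibody and the lysate. Both libraries of the IgG control lay above Input for 6 members and below for 3, beside 29.7% and 29.3% of all genes, and the log2 fold change was above 0 in 17 members, beside 50.5%. Slc38a6 was the 1 member at least 2-fold higher and 0 were as much lower, beside 6.44% and 2.91%. The median was 0.03 over the members and 0.007 over all tested genes, and became 0.706 and 0.699 with unscaled CPM.

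Genes of related processes, some acting on other kinds of carrier, were counted in 5 lists. Over all tested genes, limma called 1.54% higher and 0.277% lower in Cnot3 RIP against the IgG control. The shares were 5.86% and 2.47% in Cnot3 RIP against Input, and 2.58% and 1.49% in the IgG control against Input. Medians over all tested genes were −0.003, 0.06 and 0.007 in the same order. Of 27 tested genes of the amino acid response driven by ATF4, limma called 1 higher and 0 lower in Cnot3 RIP against the IgG control. This was Ddit4, an inhibitor of mTORC1, with 82.7 and 567 scaled CPM against 15.3 and 10.8 (log2 fold change 4.05, SE 0.74, limma adjusted p = 0.0350). Against Input, Ddit4 (3.72) and Cth, an enzyme of cysteine synthesis (2.19), were higher and Atf5 (−1.25) was lower, so 2 of 27 higher is near the background. Cth was low, at 0.819 and 2.16 scaled CPM in Cnot3 RIP and 0 and 0.241 in Input, where it lay near the floor. Atf5 was also lower in the IgG control against Input (−1.38). Without Cnot3 RIP replicate 2, Ddit4 stood at 2.33 against Input (limma adjusted p = 0.0483) and Cth at 1.57 (0.218). The medians of the list were 0.17, 0.04 and −0.24 in the comparisons of Cnot3 RIP with the IgG control, of Cnot3 RIP with Input and of the IgG control with Input. Atf4 itself stood at 0.98 (SE 0.35, limma adjusted p = 0.191) on the log2 scale against the IgG control.

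Of 15 tested partners and turnover factors of carriers, not only those of amino acids, limma called 1 higher and 0 lower against the IgG control. This was Txnip, an arrestin-like protein that promotes removal of glucose carriers from the cell surface, at 550 and 2145 scaled CPM against 129 and 107 (log2 fold change 3.20, SE 0.52, limma adjusted p = 0.0266). Against Input, Txnip (3.04), its relative Arrdc4 (1.86) and the kinase Sgk1 (1.78), which raises the surface activity of several carriers, were higher, and Bsg (−1.57), the chaperone of lactate carriers, was lower. Without Cnot3 RIP replicate 2, Txnip stood at 2.06 (limma adjusted p = 0.0243), Arrdc4 at 1.71 (0.181) and Sgk1 at 1.02 (0.0914). Arrdc4 stood at 1.11 without Input replicate 2, and its call was also lost with library sizes taken without Rn45s (1.81, limma adjusted p = 0.0874). Bsg (−1.33) and Arl6ip5 (−1.01), which binds the glutamate carrier Slc1a1, were lower in the IgG control against Input. Medians were 0.15, 0.32 and −0.13.

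Of 35 tested genes of amino acid sensing by mTORC1, limma called 0 against the IgG control. The 4 of smallest p were Fnip2 (0.95, limma adjusted p = 0.0904), Sesn2 (1.28, 0.0959, also in the list of the amino acid response), Flcn (1.05, 0.143) and Fnip1 (0.97, 0.171). Flcn, Fnip1 and Fnip2 encode folliculin and its partners, which act on the Rag GTPases at lysosomes. Against Input, Fnip2 (1.49) and Fnip1 (1.28) were higher and Lamtor2, a subunit of the Ragulator scaffold, was lower (−1.54), as it was in the IgG control against Input (−1.34). With 5.86% of all tested genes called higher in Cnot3 RIP against Input, 2 of 35 is near the background. Without Cnot3 RIP replicate 2, Fnip2 stood at 1.335 (limma adjusted p = 0.0596) and Fnip1 at 0.75 (0.176). Medians were 0.11, 0.06 and −0.14. Of 17 tested other carriers of amino acids and peptides, 0 were called against the IgG control by limma, with Slc15a2 (−1.26, limma adjusted p = 0.0946), Slc25a18 (−1.32), Slc15a4 (−0.61) and Slc25a22 (0.73) of smallest p. Slc17a7, a vesicular glutamate carrier, was lower against Input in both kinds of RIP (−1.50 with Cnot3, −1.45 with control IgG). Mitochondrial Slc25a18 was higher in the IgG control than in Input (1.95), at 1.21 and 1.13 scaled CPM against 0.0924 and 0.145. Its Input values lay at or below the floor of those libraries (0.277 and 0.145). Medians of that list were −0.03, −0.03 and −0.13. Of 20 tested genes of creatine, taurine and glutamate metabolism, limma called 0 in each of the 3 comparisons, with medians of −0.05, −0.17 and −0.21. Against the IgG control the smallest p belonged to Csad, which makes the taurine precursor hypotaurine (−0.81, limma adjusted p = 0.174), followed by Nos3 (−0.34), Dbt (0.40) and Gatm (0.28). Among marker genes limma called Myl2 (−1.28), Myl3 (−1.16), Lyz2 (−0.96) and Acta1 (−1.03) lower in Cnot3 RIP than in Input, and Acta1 (−1.02) lower in the IgG control than in Input. Unscaled CPM moved the median of all tested genes to 1.02 in Cnot3 RIP against Input and to 0.70 in the IgG control against Input, and only 7 and 10 of the 13010 genes were then called lower. Every gene of these lists called lower against Input lost its call there, and Acta1 (0.05) and Lyz2 (0.10) lay above 0 in Cnot3 RIP but below that median. With library sizes taken without Rn45s, Cth, Atf5, Arrdc4 and Lyz2 lost their calls in Cnot3 RIP against Input (limma adjusted p 0.0526 to 0.0874). Atf5, Arl6ip5, Lamtor2, Slc17a7 and Slc25a18 lost theirs in the IgG control against Input (limma adjusted p 0.0509 to 0.0776). The calls of these lists in the IgG control against Input were also lost when either IgG control library was left out. Without Input replicate 1, every call of these lists against Input was lost, with Ddit4 at 3.08, Txnip at 2.79 and Bsg at −1.72 in Cnot3 RIP. Each was also lost without Input replicate 2. Few genes at large were called without that library, 8 higher and 2 lower of 13010 in Cnot3 RIP against Input and 24 higher and 0 lower in the IgG control against Input. Ddit4 (4.26), Txnip (3.195) and Bsg (−1.52) differed from Input by about as much as before. Against the IgG control, Ddit4 and Txnip stood at 4.25 and 3.30 without IgG control replicate 1 but were not called (limma adjusted p = 0.299 and 0.260), in a fit that called 0 of 13010 genes and gave 734 higher and 376 lower with an unadjusted p under 0.05. Without IgG control replicate 2 they stood at 3.80 and 3.07 (limma adjusted p = 0.119 and 0.0830) where 79 genes were called higher and 35 lower, and Ddit4 stood at 2.66 (limma adjusted p = 0.0636) without Cnot3 RIP replicate 2.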

How the data were processed

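The authors deposited 1 table of CPM per gene symbol and library. Per the submitters' processing notes, CASAVA 1.8, FastQC, Bowtie2 2.2.5, TopHat2 2.1.0, edgeR and mm10 were used. The counter, annotation, kit and strand setting were not given in the sources used here, so genes that overlap on the other strand cannot be told apart. Every value checked was a whole multiple of 1 read (100% within 0.01 read). The most abundant genes, Rn45s among them, were left out of that check. The recovered reads gave TMM factors and the edgeR 4.0.16 quasi-likelihood alternative. limma 3.58.1 (R 4.3.3, trended empirical Bayes) was run on log2(scaled CPM + 0.25) over 6 libraries and 3 group means, for 13010 genes kept by filterByExpr (minimum count 10, here 0.538 CPM in 2 libraries). Fold changes are on this scale and understate those of low genes. Residual degrees of freedom were 3 and prior 6.24. The fit was tested on simulated data. Groups came from the sample labels.

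Members and lists were chosen with earlier results of these data known. Named were the members called, the 5 of smallest p in each direction and comparison, the 10 most abundant and both heavy chains, plus groups of 5 or fewer and, per list, the genes called or the 4 of smallest p against control IgG RIP. Slc7a2, Slc7a5, Slc7a6, Slc7a8 and Slc36a4 were named as relatives after their values were seen. All 59 members and 24002 of 24421 symbols matched GENCODE M21 (mm10). Alternatives covered scaling, pseudocount, filters, the test, the groups in the fit, the replicate block and each library left out.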

Additional observations from a re-analysis of the deposited data

How the results depend on the processing

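Members called in Cnot3 RIP against control IgG RIP numbered 3 instead of 0 with unscaled deposited CPM (Slc36a1, Slc38a2 and Slc7a1, among 592 higher of all genes) and 0 to 5 with a library left out. Against Input the 2 calls became 25 with unscaled CPM (where 7752 of all 13010 genes were called higher), 0 with library sizes without Rn45s, 0 with no filter, 0 with only the 2 groups in the fit, and 0 to 3 with a library left out. For control IgG RIP against Input, 0 became 8 with unscaled CPM (4383 of all genes called higher), 2 with only the 2 groups, and 0 to 2 with a library left out (2 without Cnot3 RIP replicate 1 or replicate 2, with Slc38a6 and Slc38a9 called). Member medians with unscaled CPM were 0.37, 1.23 and 0.71, beside 0.30, 1.02 and 0.70 over all tested genes. They ranged over 0.0225 to 0.0537, 0.0714 to 0.297 and 0.0185 to 0.0746 with a library left out. RLE size factors, a pseudocount of 1, a filter at 0.5 CPM and edgeR's quasi-likelihood test left each count of calls as it was.

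With the replicate block, 1 member was called against Input (Slc36a1) and Slc38a2 had a limma adjusted p of 0.0736. The numbers share no source in the labels, and deviations of same-numbered libraries correlated at −0.317 (control IgG RIP and Cnot3 RIP), −0.327 (control IgG RIP and Input) and 0.339 (Cnot3 RIP and Input).

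Directions turned with unscaled CPM against Input for Slc1a4 (0.50), Slc36a2 (0.52), Slc38a10 (0.83), Slc6a17 (0.34) and Slc7a4 (0.23) in Cnot3 RIP, and for Slc38a10 (0.58), Slc38a4 (0.54), Slc6a17 (0.10) and Slc6a8 (0.29) in control IgG RIP. With a library left out, Slc38a4 in control IgG RIP against Input ranged from −0.44 to 0.0219, and it was above 0 at 0.0123 when control IgG RIP replicate 1 was left out and at 0.0219 when Input replicate 1 was. Of 450 alternative values of the named members, 402 kept direction and call, 20 were newly called, 17 lost their call and 11 turned. The cause was not tested. The 27 members outside the test were too low to be compared at this depth.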
